A study of Mus musculus with 6 samples.

Results

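The SOX transcription factors described here are the 10 genes Sox1, Sox2, Sox3, Sox4, Sox5, Sox6, Sox8, Sox9, Sox11 and Sox21, found by their symbols among the 22322 genes of the deposited table, and each symbol stood for 1 gene. They were measured by RNA-seq in wild-type mouse neural stem progenitor cells, the dividing cells that can give rise to neurons, astrocytes and oligodendrocytes. Cells of the Control group received PBS, and cells of the other group received PTN. PTN is given in the labels only as an abbreviation and is read here as pleiotrophin, a secreted heparin-binding growth factor. RNA of both groups was taken at 24 h, with 3 libraries in each. The sources used here do not give the amount of PTN, the age and strain of the mice or the origin of the culture. The labels do not tie a replicate to its own culture or animal, so a p-value here measures only how far these samples spread, and that spread may be technical.

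SOX proteins bind DNA through an HMG box, a domain that fits into the minor groove and bends the helix, and most act together with a partner factor. The SOXB1 proteins (Sox1, Sox2 and Sox3) keep neural progenitors undifferentiated, and the SOXB2 protein Sox21 counteracts them. The SOXC proteins (Sox4 and Sox11) promote neuronal differentiation. The SOXD proteins (Sox5 and Sox6) have no activation domain of their own and modulate other SOX proteins through a coiled coil. The SOXE proteins (Sox8, Sox9 and Sox10) act in the formation of glia, with Sox9 early in that switch and Sox10 in the oligodendrocyte lineage.

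The DNA that encodes the HMG box differs between the members. The first 60 of its 207 bases are given for 6 members, chosen because the pairs Sox4 and Sox11 and Sox8 and Sox9 are compared in the results and Sox6 carries a result of its own, with Sox2 as the base of comparison. They are from GENCODE M21 transcripts, 5′ to 3′, and capitals mark bases that differ from Sox2.
Sox2: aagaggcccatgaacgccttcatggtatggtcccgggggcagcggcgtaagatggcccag
Sox4: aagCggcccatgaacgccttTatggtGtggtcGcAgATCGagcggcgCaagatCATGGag
Sox11: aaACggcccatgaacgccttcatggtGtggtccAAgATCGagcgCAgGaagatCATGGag
Sox6: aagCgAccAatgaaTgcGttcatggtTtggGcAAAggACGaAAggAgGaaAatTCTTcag
Sox8: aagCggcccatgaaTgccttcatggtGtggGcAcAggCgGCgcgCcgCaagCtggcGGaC
Sox9: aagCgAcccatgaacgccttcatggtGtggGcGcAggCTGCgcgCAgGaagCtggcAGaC
In this stretch Sox4 differed from Sox2 at 15 bases, Sox11 at 17, Sox8 at 15, Sox9 at 17 and Sox6 at 22. Over the whole box, Sox4 and Sox11 shared 90.3% of bases, with a longest identical run of 48 bases. Sox3 shared 87.9% with Sox2 of its own subfamily and 88.4% with the SOXB2 gene Sox21, so identity of the box did not separate SOXB1 from SOXB2. Sox8 and Sox9 shared 86.5%, Sox5 and Sox6 shared 83.1%, and Sox6 and Sox8, the least alike of the 45 pairs, shared 53.6%. The expected counts of all 10 genes were whole numbers within 0.005 in all 6 libraries, so no fractional read was assigned to any of them.

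All 10 genes were expressed and entered the test, with 615 to 9868 counts per library. Their mean levels lay above those of 59.9% to 95.8% of the 13161 genes tested. Libraries held 19267764 to 26341745 expected counts, and scaling factors between libraries lay between 0.993 and 1.01. Of the 10 markers of the labelled cells, all were detected, among them Nes, Vim and Fabp7, and their summed level was 7386 to 8481 CPM (counts scaled to a common library size) in Control and 10099 to 11216 CPM in PTN. Vim was the highest of them, with means of 3448 and 5165 CPM. By the edgeR test described below, 2 of the 10 were called higher (Vim and Egfr), beside 4.93% of all genes tested. Msi1 was lower in every PTN library than in every Control library (means 138 and 93.1 CPM) without a call. Fabp7 and Pax6 also had negative estimates, so these markers did not move as a set. Markers of microglia summed to 2.07 to 4.09 CPM in Control and 2.55 to 3.07 CPM in PTN, those of endothelial and mural cells to 11.3 to 14.1 and 8.85 to 12.02 CPM, and those of fibroblasts to 7.22 to 11.2 and 3.61 to 6.76 CPM.

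Levels of different genes were compared as FPKM, which is per length of transcript. In Control the order of mean levels was Sox2 (80.6 FPKM), Sox8 (60.8), Sox3 (48.1), Sox4 (47.8), Sox9 (38.8), Sox6 (15.96), Sox21 (14.3), Sox1 (10.7), Sox11 (7.20) and Sox5 (6.85). The ranges over libraries overlapped between the neighbours Sox8 and Sox3, Sox3 and Sox4, Sox4 and Sox9, Sox6 and Sox21, and Sox11 and Sox5, so these neighbours were not separated. In PTN the order was Sox2 (104 FPKM), Sox4 (71.2), Sox3 (41.5), Sox9 (39.0), Sox8 (30.7), Sox6 (22.3), Sox21 (16.5), Sox1 (12.5), Sox11 (12.1) and Sox5 (7.57), and every pair of neighbours overlapped. Sox8 stood at rank 2 in Control and rank 5 in PTN. Sox2, the factor most closely tied to the neural stem cell state, had the highest mean in both groups.

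**Figure D1:**
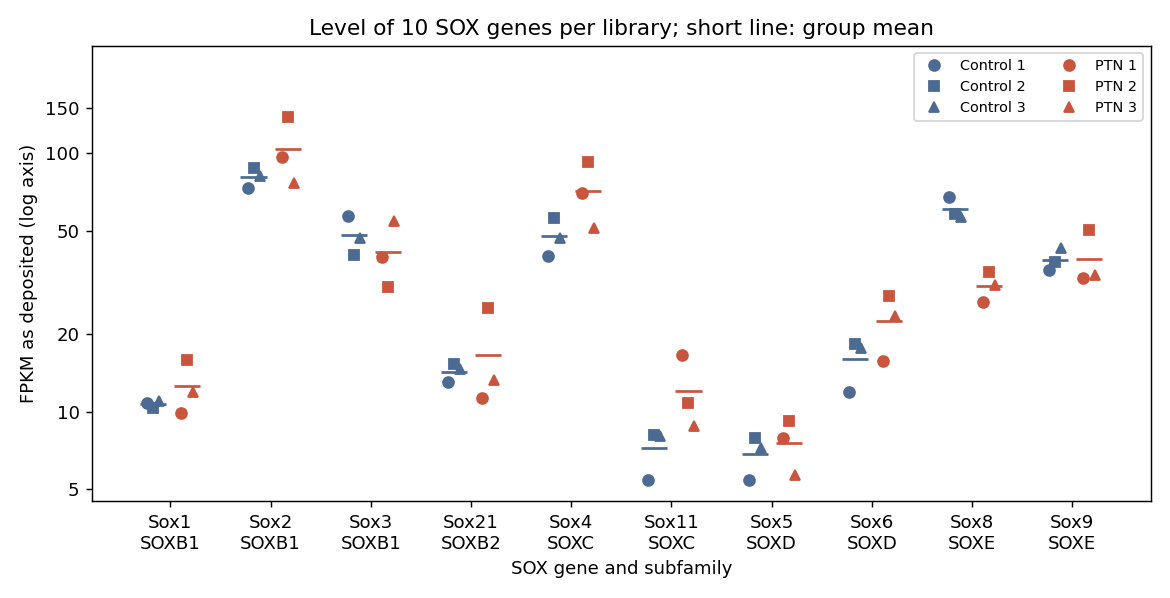
FPKM (log axis) of the 10 SOX genes in each library, symbols for single libraries and short lines for the group mean, Control in blue beside PTN in red. Sox8 lies between 56.8 and 67.7 FPKM in the 3 Control libraries and between 26.5 and 34.7 FPKM in the 3 PTN libraries, with no overlap.

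Changes between groups were tested on counts with edgeR's quasi-likelihood test, fitted over all 13161 genes with Benjamini-Hochberg adjustment, and a gene was called at an adjusted p under 0.05. Sox8 fell, and no SOX gene of the 10 was called higher. Among all genes tested 3.06% were called lower and 4.93% higher, 7.99% in all, so 1 of 10 is close to the background. At an unadjusted p under 0.05 there were 3 of 10 (Sox8, Sox4 and Sox11), against 27% of all genes, and CPM values of the groups did not overlap for 2 of 10 (Sox8 and Sox11), against 32.9%. No SOX gene was called higher by limma-voom either, and 1, Sox11, was by DESeq2's Wald test. The log2 fold change was positive for 7 genes and negative for 3, with a median of 0.22 beside 0.03 over all genes tested.

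Sox8 encodes a SOXE factor that acts alongside Sox9 and Sox10 in glial development. Its levels were 200, 174 and 167 CPM in Control 1, 2 and 3, and 76.4, 101 and 91.2 CPM in PTN 1, 2 and 3. Every PTN library lay below every Control library. The means were 180 ± 17.4 and 89.5 ± 12.4 CPM (SD, n = 3 each), a 2.01-fold lower level in PTN, and the log2 fold change was -1.01 ± 0.16 (SE, 95% interval -1.37 to -0.65; edgeR adjusted p = 0.00801). By unadjusted p it ranked 234 of the 13161 genes. In bulk RNA, fewer cells of a type and less RNA per cell cannot be told apart.

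The fall of Sox8 stood beside lower levels of several glial markers. The 8 astrocyte markers summed to 8303 to 8587 CPM in Control and 2704 to 5970 CPM in PTN. Gfap alone had means of 3652 and 813 CPM. Of the 8, 3 fell (Gfap, Gjb6 and Aldoc), and 3 had positive estimates without a call (S100b, Aqp4 and Gja1). S100b, with means of 2.78 and 4.39 CPM, was higher in every PTN library than in every Control library. Of the 9 tested markers of the oligodendrocyte lineage 2 fell (Pdgfra and Cspg4, which mark oligodendrocyte precursors), while the summed level, held mostly by Olig1 and Olig2, was 1295 to 1481 CPM in Control and 1126 to 1499 CPM in PTN. Of 8 markers of cycling cells 3 fell (Ccnb1, Aurka and Bub1b), with sums of 1399 to 1876 CPM in Control and 1037 to 1698 CPM in PTN. Of 10 neuronal markers 2 rose (Slc17a7 and Gad1, both low), with sums of 264 to 398 and 312 to 524 CPM. Slc17a7 had 3 to 5 counts per Control library and 12 to 24 per PTN library (edgeR adjusted p = 0.0499). It passed the count filter only through PTN, so the filter itself favoured a rise. Ependymal and choroid plexus markers summed to 73.2 to 92.2 CPM in Control and 60.2 to 110 CPM in PTN, with Tmem212 at 0 in all libraries. Over all genes tested 3.06% fell and 4.93% rose. Unadjusted p under 0.05 was found for 5 of 8 astrocyte, 4 of 9 oligodendrocyte, 6 of 8 cycling and 5 of 10 neuronal markers. The share over all genes, in either direction, was 27%. Of the 8 cycling markers 7 had negative estimates. The part of these cell types in the change of Sox8 was not tested.

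The 2 genes whose log2 CPM followed that of Sox8 most closely over the 6 libraries, among 9556 genes of at least 10 CPM, were Cdc42ep4 (Pearson r = 0.998), an effector of the small GTPase Cdc42, and Cst3 (r = 0.997), the secreted protease inhibitor cystatin C. An r above 0.95 was found for 215 genes, and libraries share their group, so this is a description. Cdc42ep4 fell from 117 ± 10.7 to 43.4 ± 7.52 CPM (SD, n = 3 each), 2.70-fold (edgeR adjusted p = 0.00344). Cst3 fell from 917 ± 84.3 to 282 ± 65.9 CPM, 3.25-fold (edgeR adjusted p = 0.00344). For both, as for Sox8, PTN 1 was the lowest library and Control 1 the highest.

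Sox8 lies at chr17:25565892-25570686 on the minus strand (GRCm38, GENCODE M21). The 250 bases before its start are shown because it is the member that changed, from RefSeq's promoter table for GRCm38.p6 (chr17:25570687-25570936, minus strand), and capitals mark an E-box, the letters CACGTG.
Sox8 promoter: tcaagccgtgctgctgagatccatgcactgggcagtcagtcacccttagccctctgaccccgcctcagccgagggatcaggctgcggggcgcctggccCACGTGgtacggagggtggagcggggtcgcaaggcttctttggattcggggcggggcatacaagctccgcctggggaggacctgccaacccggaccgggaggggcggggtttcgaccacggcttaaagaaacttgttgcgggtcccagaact
The window held 65.6% G and C and 1 CACGTG, a motif present in 6.02% of all 32851 promoter windows of this length in the table. It held no ACAAT (other strand ATTGT), the core letters of SOX binding sites, which 27.7% of windows hold. It also held no CCAAT (other strand ATTGG), found in 33.8% of windows, and no TATAAA (other strand TTTATA), found in 12.4%. The matching window of Sox4 (chr13:28953700-28953949, minus strand) held 4 matches to CCAAT on either strand, and that of Sox11 (chr12:27342719-27342968, minus strand) held 1. ATTGT and ATTGG can share letters with CCAAT and ACAAT where motifs overlap. A match of letters shows no binding. Of the 10 genes, 8 had an entry in the table.

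Sox9, the other SOXE member, promotes the switch from making neurons to making glia and maintains neural stem cells. It had 145, 158 and 177 CPM in Control and 137, 207 and 140 CPM in PTN. The groups overlapped, PTN 2 being the highest library. The log2 fold change was 0.01 ± 0.19 (SE, 95% interval -0.42 to 0.44; edgeR adjusted p = 0.975). This interval did not overlap that of Sox8.

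The 2 SOXE genes were compared within each library, as the log2 ratio of their FPKM values, which needs no scaling between libraries. Sox8 over Sox9 was 0.94, 0.61 and 0.40 in Control and -0.30, -0.54 and -0.14 in PTN. Sox8 was therefore above Sox9 in all 3 Control libraries and below it in all 3 PTN libraries. The difference was -0.97 on the log2 scale, with an exact two-sided permutation p = 0.1, the smallest that 20 divisions of 3 against 3 allow, and 0.7 after adjustment over the 7 pairs compared. Summed, Sox8 and Sox9 gave 103, 96.0 and 99.8 FPKM in Control and 59.3, 85.0 and 64.7 FPKM in PTN. Sox8 held 21.2%, 17.04% and 17.1% of the summed FPKM of the 10 genes in Control, and 8.12%, 7.97% and 9.92% in PTN.

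The SOXC genes Sox4 and Sox11, which act in postmitotic and migrating neurons, had the largest positive estimates, and neither passed the test. Sox4 had 191, 271 and 224 CPM in Control and 338, 440 and 247 CPM in PTN. PTN 1 and PTN 2 lay above all Control libraries and PTN 3 lay among them. The log2 fold change of Sox4 was 0.58 ± 0.23 (SE, 95% interval 0.06 to 1.09; unadjusted p = 0.0321, edgeR adjusted p = 0.15). Without PTN 3 it was 0.76, with an adjusted p of 0.0332.

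Sox11 had 44.9, 68.1 and 66.4 CPM in Control and 139, 89.1 and 73.1 CPM in PTN. The groups did not overlap, with PTN 1 far above the other PTN libraries and PTN 3 close to Control 2. Its log2 fold change was 0.75 ± 0.26 (SE, 95% interval 0.16 to 1.34; unadjusted p = 0.0187, edgeR adjusted p = 0.114), a ratio of 1.68. DESeq2's Wald test gave an adjusted p of 0.0406 at a log2 fold change of 0.76, and the edgeR test without PTN 3 gave 0.0331 at 0.93, so its call depended on the tool and on PTN 3. Without PTN 1, the log2 fold change was 0.44. The ratio of Sox4 to Sox11 overlapped between groups (difference -0.16 on the log2 scale, exact two-sided permutation p = 0.7). Their summed FPKM was 45.6, 64.3 and 54.9 in Control and 86.6, 103 and 60.3 in PTN, with PTN 3 inside the Control range.

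**Figure D2:**
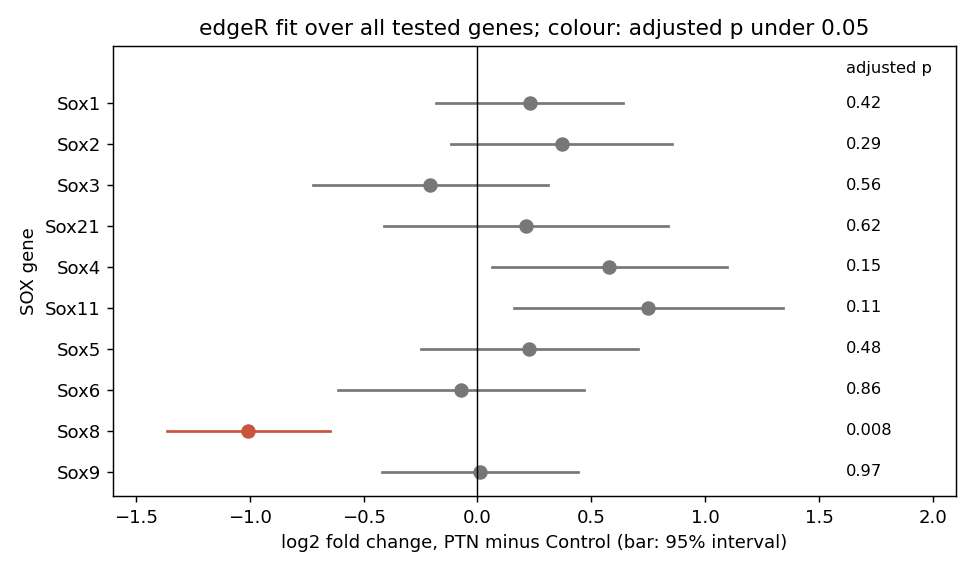
Log2 fold change, PTN minus Control, of each SOX gene with its 95% interval from edgeR, ordered by subfamily, with a line at 0, Sox8 in colour as the gene that passed and the adjusted p at the right. The interval of Sox8 lies wholly below 0 (-1.37 to -0.65), those of Sox4 (0.06 to 1.09) and Sox11 (0.16 to 1.34) lie above 0 before adjustment for the genes tested, and the other 7 span 0.

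The SOXB1 genes, which hold progenitors in the undifferentiated state, showed no called change. Sox1 had 52.0, 50.2 and 52.7 CPM in Control and 48.1, 76.2 and 57.4 CPM in PTN. Sox2 had 149, 181 and 166 CPM in Control and 200, 284 and 159 CPM in PTN. Sox3 had 117, 84.2 and 96.2 CPM in Control and 82.7, 62.2 and 113 CPM in PTN. The groups overlapped for all 3 genes, and PTN 2 was the highest library for Sox1 and Sox2 and the lowest for Sox3.

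The log2 fold changes were 0.23 ± 0.18 for Sox1 (SE, 95% interval -0.18 to 0.64; edgeR adjusted p = 0.421), 0.37 ± 0.21 for Sox2 (-0.12 to 0.86; 0.286) and -0.21 ± 0.23 for Sox3 (-0.72 to 0.31; 0.563). These intervals leave room for an increase of Sox2 of up to 0.86 on the log2 scale, so equality was not shown. Sox21, the SOXB2 antagonist, had 49.1, 58.3 and 55.3 CPM in Control and 43.1, 94.9 and 50.6 CPM in PTN. PTN 1 was its lowest library and PTN 2 its highest, and its log2 fold change was 0.21 ± 0.28 (-0.41 to 0.84; edgeR adjusted p = 0.625). Without PTN 2 the estimate for Sox21 turned to -0.21.

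Summed over the SOXB1 genes, FPKM was 141, 138 and 139 in Control and 146, 185 and 143 in PTN. The PTN values lay above the Control values, in PTN 1 and PTN 3 by a few FPKM. Within libraries, the log2 ratio of Sox2 to Sox3 was 0.36, 1.11 and 0.80 in Control and 1.28, 2.19 and 0.50 in PTN, a difference of 0.57 (exact two-sided permutation p = 0.4). The ratio of Sox2 to Sox21 was 2.48, 2.51 and 2.47 in Control, the tightest of the 7 pairs, and 3.09, 2.46 and 2.53 in PTN (difference 0.20, exact two-sided permutation p = 0.5). The differences for Sox1 over Sox2 and Sox1 over Sox3 were -0.13 and 0.44, with exact two-sided permutation p of 0.6 and 0.5, and the groups overlapped in both.

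**Figure D3:**
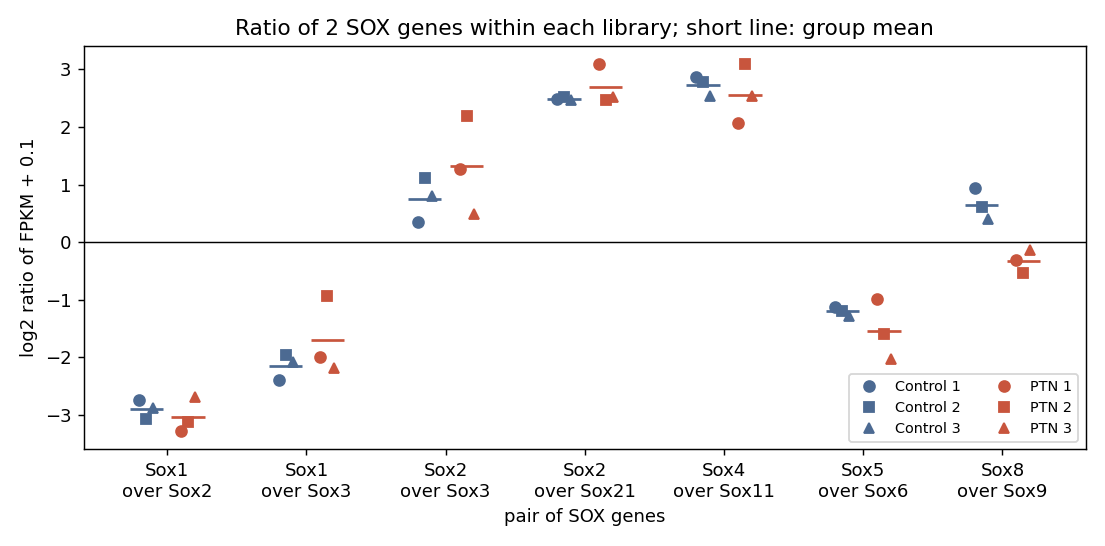
Log2 ratio of FPKM of 2 SOX genes within each library, for the 7 pairs, Control in blue beside PTN in red, symbols for libraries and short lines for group means. Sox8 over Sox9 lies between 0.40 and 0.94 in Control and between -0.54 and -0.14 in PTN, and the other 6 pairs overlap.

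The SOXD gene Sox5, a modulator of neuronal and glial timing, had 31.1, 43.7 and 36.0 CPM in Control and 46.9, 50.9 and 32.0 CPM in PTN. The groups overlapped, and the log2 fold change was 0.23 ± 0.21 (SE, 95% interval -0.25 to 0.70; edgeR adjusted p = 0.485). Sox6, its close relative, had 91.0, 121 and 121 CPM in Control and 98.2, 143 and 75.4 CPM in PTN, with PTN libraries both above and below all Control libraries. Its log2 fold change was -0.07 ± 0.24 (-0.61 to 0.47; edgeR adjusted p = 0.857), and without PTN 3 the estimate turned to 0.12.

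Sox6 was the member whose counts and FPKM did not move together. Its FPKM was 11.9, 18.3 and 17.6 in Control and 15.7, 27.9 and 23.4 in PTN, and limma on log2 FPKM (pseudocount 0.1) gave a log2 fold change of 0.47 (adjusted p = 0.255), opposite in sign to the count estimate. Dividing count by FPKM and by library total gives the transcript length that the authors' quantification used. For Sox6 it was 7670, 6576 and 6885 bp in Control and 6222, 5157 and 3211 bp in PTN. Every PTN library had a shorter value than every Control library.

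The means were 7043 ± 564 and 4863 ± 1527 bp (SD, n = 3 each), 1.45-fold shorter in PTN (exact two-sided permutation p = 0.1, the smallest possible). The fold was 1.24 without PTN 3, 1.68 without PTN 1 and 1.335 from the medians over libraries. Among 10889 genes of at least 1 FPKM in all libraries, Sox6 ranked 6 from the most shortened. These include genes with a single transcript, such as Sox2, whose implied length has little room to vary. No rank or share among genes with several transcripts was computed. A fold of at least 1.4 with no overlap was found for 6 genes, 0.0551% of them: Dock3, Slirp, Itga3, Zfp965, Sox6 and Mbp, a list chosen after its values were seen. The cutoff of 1.4 lies just under the 1.45 of Sox6, so this share largely restates its rank and is no test. The folds of 1.24 and 1.335 for Sox6 fall below that cutoff. The longest library value of Sox6 was 2.39 times the shortest, and a ratio over 2 was found for 47 of the 10889 genes (0.432%).

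GENCODE M21 lists 16 transcripts of Sox6, from 331 to 8668 bp, the 4 longest of at least 8079 bp. RefSeq's table gives 6 start windows for the gene. The table of the authors gives 1 value per gene, so which Sox6 transcripts were present was not tested. The 7 members with a single M21 transcript had implied lengths within 5 bp of it in every library. Sox5, with 14 transcripts, ranged from 5015 to 5907 bp, and Sox8, with 3, from 2856 to 2978 bp. The log2 ratio of Sox5 to Sox6 therefore depended on the unit, with a difference of -0.34 by FPKM (exact two-sided permutation p = 0.4) and 0.32 by expected counts.

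**Figure D4:**
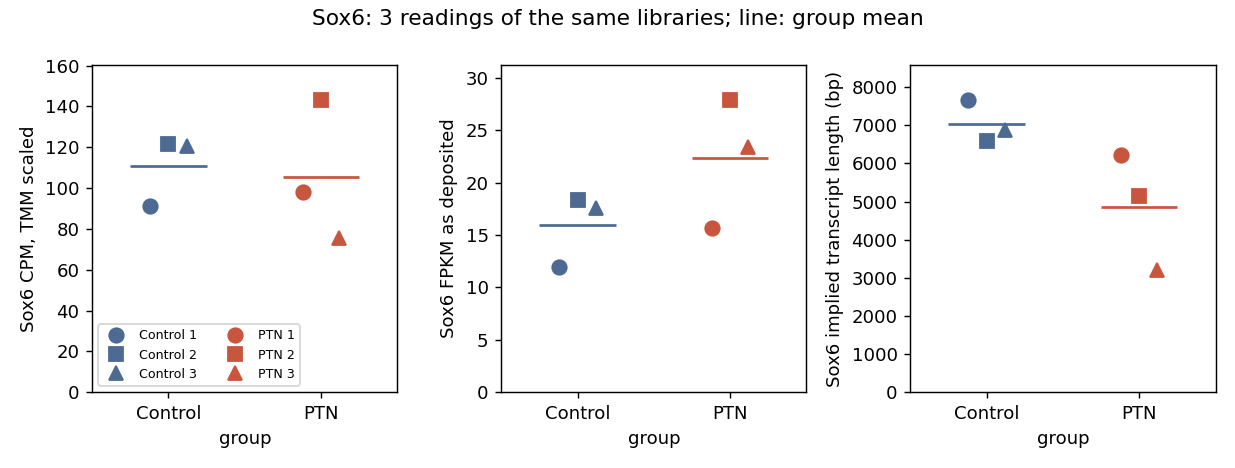
Transcript length in bp implied by count and FPKM for Sox6 in each library, beside its CPM and FPKM. The length lies between 6576 and 7670 bp in the Control libraries and between 3211 and 6222 bp in the PTN libraries, while CPM overlaps between the groups.

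Libraries of the PTN group were more spread for most members. The SD of CPM was larger in PTN for 9 of the 10 genes, Sox8 being the exception. The coefficient of variation was 2.52% to 21.6% in Control and 13.8% to 44.6% in PTN. PTN 2 was the highest of the 6 libraries for 7 genes (Sox1, Sox2, Sox21, Sox4, Sox5, Sox6 and Sox9). Control 1 was the lowest for Sox2, Sox4, Sox11 and Sox5 and the highest for Sox3 and Sox8. How often such patterns held over all genes tested was not counted, so they cannot be called particular to SOX genes. Half-widths of the 95% intervals were 0.36 to 0.63 on the log2 scale, before adjustment for the genes tested, so smaller changes of these genes were not detectable in 3 against 3 libraries.

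Of the 10 other SOX genes listed, 4 had enough counts to be tested, and Sry, Sox14 and Sox17 had 0 counts in all libraries. None of the 4 was called by edgeR, 1 had an unadjusted p under 0.05, and their median log2 fold change was -0.03. That gene was Sox10, the SOXE factor of the oligodendrocyte lineage, with 40.2, 33.0 and 34.3 CPM in Control and 11.9, 20.1 and 4.21 CPM in PTN. Every PTN library lay below every Control library. The estimate was -1.57 ± 0.44 on the log2 scale (SE, n = 3 each), with an edgeR adjusted p of 0.0652. DESeq2's Wald test gave an adjusted p of 0.00226, limma-voom 0.0409, the edgeR test without PTN 2 0.0225 and without PTN 3 0.0174. Its call therefore depended on the tool and on those libraries.

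Of 20 partner factors and cofactors of SOX proteins, 1 rose and none fell by edgeR (5 at an unadjusted p under 0.05), with a median log2 fold change of 0.18. Over all genes tested 4.93% rose and 27% had an unadjusted p under 0.05, so these counts are near the background. The POU factor Pou3f2, a partner of Sox2 in neural enhancers, had 28.4, 45.2 and 41.4 CPM in Control and 57.7, 57.7 and 31.3 CPM in PTN, which overlapped. The gene that rose was Ctbp2, a corepressor, from 42.4 ± 3.96 to 64.8 ± 3.42 CPM (1.53-fold, edgeR adjusted p = 0.033). It lost the call without any 1 of the Control libraries or PTN 1, with adjusted p between 0.0908 and 0.14.

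Of 16 tested genes reported as SOXB1 targets, 5 rose and 1 fell, with a median log2 fold change of 0.35, beside 4.93% and 3.06% of all genes tested. At an unadjusted p under 0.05 there were 9 of 16, beside 27%. Shh, which encodes the morphogen Sonic hedgehog, rose from 0.601 ± 0.148 to 5.003 ± 1.86 CPM (8.25-fold, edgeR adjusted p = 0.00444). Cdk6, a kinase of the G1 phase, rose from 13.5 ± 0.552 to 33.5 ± 5.90 CPM (2.49-fold, edgeR adjusted p = 0.00515). Both passed without any single library. Egfr, a receptor of activated neural stem cells, rose from 257 ± 22.4 to 452 ± 90.8 CPM (1.76-fold, edgeR adjusted p = 0.0276) and lost the call without any 1 Control library or PTN 1 (0.0527 to 0.128).

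Hes5, an effector of Notch signalling, fell from 7.24 ± 0.543 to 2.17 ± 1.02 CPM (3.32-fold, edgeR adjusted p = 0.0151). Its adjusted p was 0.064 without Control 1, 0.0597 without Control 3 and 0.0539 without PTN 1. The other 2 that rose, named here after their values were seen, were Socs3, a feedback inhibitor of cytokine signalling, and Vim, an intermediate filament of progenitors. Nes, whose neural enhancer is bound by Sox2 and Pou3f2, had 682, 722 and 761 CPM in Control and 1295, 709 and 962 CPM in PTN, which overlapped (edgeR adjusted p = 0.215).

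Of 12 genes reported as SOXC targets, 4 rose and none fell, with a median log2 fold change of 0.25, beside 4.93% of all genes that rose. At an unadjusted p under 0.05 there were 6 of 12, beside 27%. Prox1, a homeobox regulator of neuronal differentiation, rose from 28.8 ± 5.52 to 72.1 ± 15.96 CPM (2.50-fold, edgeR adjusted p = 0.00922) and passed without any single library. Gap43, a growth cone protein, rose from 42.02 ± 5.49 to 111 ± 36.3 CPM (2.64-fold, edgeR adjusted p = 0.00985), with 0.0504 without Control 1. Nrcam, a neuronal adhesion molecule, and Elavl3, a neuronal RNA-binding protein, rose 1.96-fold and 1.57-fold (edgeR adjusted p = 0.033 and 0.0485).

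Elavl3 lost the call without any 1 of the Control libraries or PTN 1 (0.12 to 0.172), and Nrcam lost it without any 1 of the Control libraries, PTN 1 or PTN 2 (0.0701 to 0.129). Tubb3, a neuronal tubulin and a reported direct target of Sox11, was lower in every PTN library than in every Control library without passing the test, with 32.0, 26.9 and 29.6 CPM in Control and 21.6, 10.3 and 20.9 CPM in PTN (edgeR adjusted p = 0.123). Dcx, a marker of migrating neuroblasts, had 2.58 to 5.16 CPM in Control and 1.46 to 7.58 CPM in PTN.

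Of 13 genes reported as SOXE targets, 2 fell and none rose, with a median log2 fold change of -0.36, beside 3.06% of all genes that fell. At an unadjusted p under 0.05 there were 6 of 13, beside 27%. Both code for markers of glial cells. Gfap, the astrocyte filament, had 3740, 3614 and 3601 CPM in Control and 342, 1685 and 414 CPM in PTN (4.49-fold lower, edgeR adjusted p = 0.047). Pdgfra, the receptor of oligodendrocyte precursors, had 81.6, 102 and 103 CPM in Control and 25.5, 36.4 and 11.3 CPM in PTN (3.90-fold lower, edgeR adjusted p = 0.0145). Groups did not overlap for either. The size for Gfap rested on PTN 2, with a log2 fold change of -2.17 over all libraries and -3.27 without PTN 2. Gfap lost the call without any 1 Control library or PTN 1 (0.0928 to 0.13), and Pdgfra without PTN 1 (0.0533).

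Nfia, a reported target and partner of Sox9, had 68.2, 89.8 and 93.0 CPM in Control and 119, 150 and 78.4 CPM in PTN, which overlapped. The myelin gene Mbp had 15.4, 12.3 and 12.2 CPM in Control and 7.37, 13.6 and 0.936 CPM in PTN. It was not called, and PTN 3 lay below every Control library.

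The last list holds genes reported as targets of Sox9 with the SOXD proteins. It is called matrix genes here, since all but Axin2 are of cartilage-type matrix. Of 9 tested, 2 fell and none rose, with a median log2 fold change of -0.997, beside 3.06% of all genes that fell. Col2a1, Col9a1, Col9a2, Col11a2, Matn4 and Hapln1 had means of at most 3.24 CPM in either group, so these list values rest partly on few counts. Hapln1 and Col2a1 passed the count filter only through their Control libraries, so the filter itself favoured a fall. Matn4, with a positive estimate, passed only with its PTN libraries. Under a filter of at least 1 CPM in 3 libraries, Hapln1 was not tested and 1 gene of this list was called. At an unadjusted p under 0.05 there were 7 of 9, beside 27%. Col9a3, a chain of collagen IX, fell from 55.2 ± 3.78 to 27.6 ± 5.90 CPM (2.00-fold, edgeR adjusted p = 0.0135), with 0.0567 without Control 1. Hapln1, a hyaluronan link protein, fell from 0.791 ± 0.151 to 0.132 ± 0.118 CPM (5.73-fold, edgeR adjusted p = 0.0341) on 1 to 6 counts per PTN library, and lost the call without any 1 of the Control libraries or PTN 1 (0.0902 to 0.124). Its log2 fold change was -2.52, and it was -3.47 without PTN 2 and -0.95 with limma on log2 FPKM, so its size was not settled. Over the 5 lists of partners, targets and matrix genes, genes that rose and genes that fell were found, and no link between any of them and a SOX gene was tested.

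**Figure D5:**
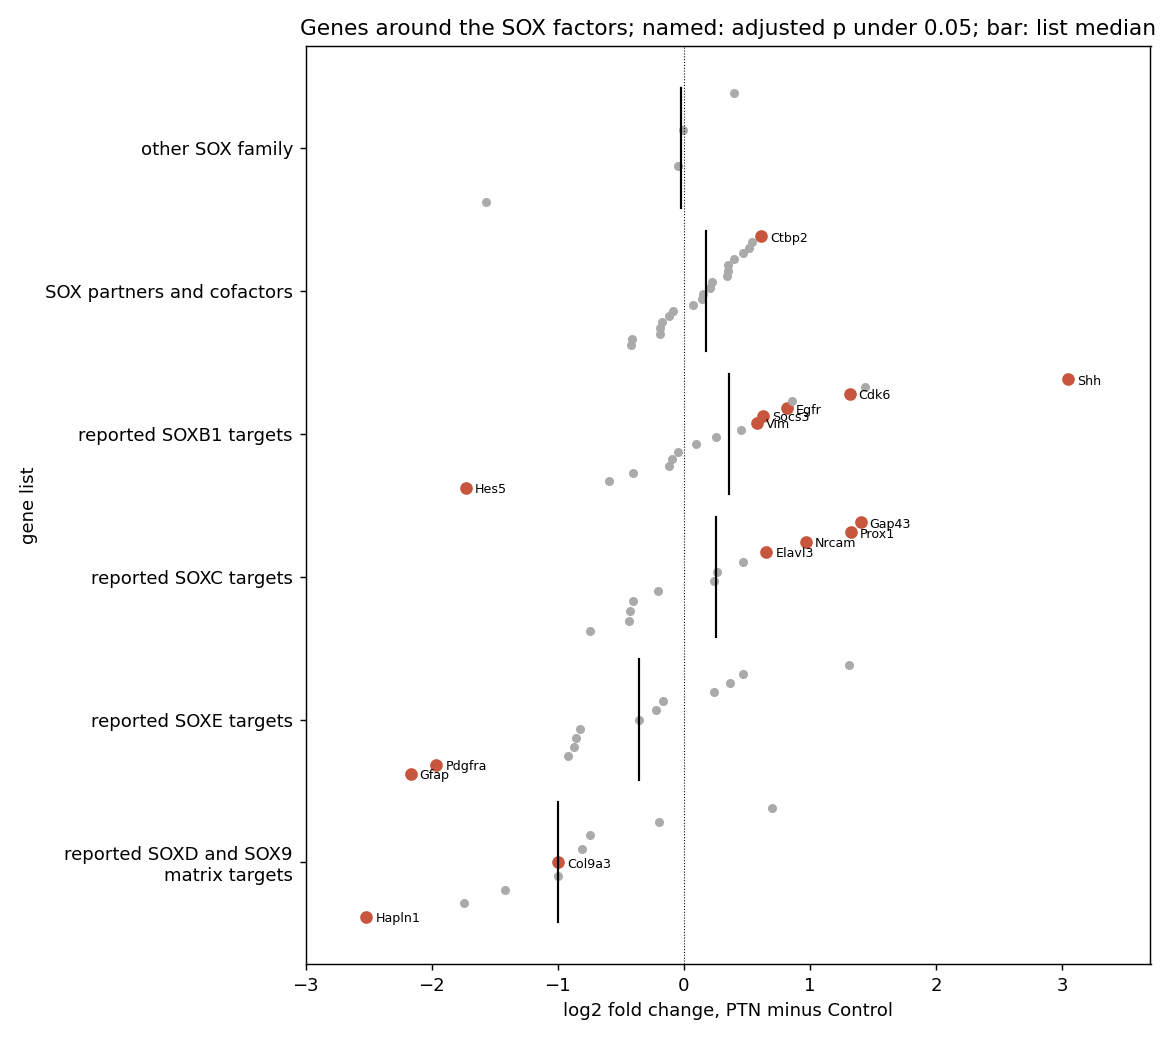
Log2 fold change, PTN minus Control, of each tested gene in the lists of SOX family, partner and reported target genes, with called genes named and in colour, and a bar at each list's median. Medians run from -0.997 for the matrix genes to 0.35 for the reported SOXB1 targets, beside 0.03 over all genes tested.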

How the data were processed

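RNA was isolated with a column kit and 1.3 ug per library entered an mRNA library kit, per the labels' protocols. The authors deposited 1 table with an expected count, an estimated number of reads or fragments per gene, and an FPKM value, that count per kilobase and library total, for each of 6 libraries. The sources used here do not give the aligner, counter, build or annotation. The table's columns were matched to samples by group letter and replicate number.

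Expected counts were rounded, filtered with filterByExpr (13161 of 22322 genes kept), scaled by TMM and compared with edgeR 4.0.16 (R 4.3.3; quasi-likelihood, 2 groups, Benjamini-Hochberg over all tested genes, called under 0.05). The biological coefficient of variation was 0.208. The SE was derived from the F statistic. FPKM ratios within libraries (pseudocount 0.1) were compared by exact permutation. The script was tested on simulated counts. Library totals make 1 CPM about 19 to 26 counts. Genes under 1 CPM in a group, such as Shh and Hapln1, rest on few counts, where counting error is a large part of the spread.

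Named genes were the 10 SOX genes, up to 4 called genes per list by smallest p (or that of smallest p), and the 2 most like each called SOX gene. Further genes, such as markers, were named after their values were seen. The members, lists and tests were chosen with earlier results of these data known. DESeq2 1.42.0, limma 3.58.1, other scalings and filters, the replicate number as a block, removal of the length trend and leaving out each library were alternatives. FPKM tests, the Sox6 length and correlations among members were chosen after seeing the data. Sequences are from GENCODE M21 and RefSeq (GRCm38.p6). One gene of the lists is not reported here by name.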

Additional observations from a re-analysis of the deposited data

How the results depend on the processing

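The call and direction of Sox8 were the same under every alternative run, with log2 fold changes of -1.05 to -0.99, and of -1.10 to -0.90 with each library left out. Of the other members' values, these changed sign. Sox9 was -0.030 with upper-quartile scaling, -0.012 with limma-voom, -0.012 with the replicate block, -0.12 with the length trend removed, -0.016 with limma on log2 FPKM, and -0.21 to 0.12 with 1 library left out (-0.08 without Control 1, -0.03 without Control 2, -0.21 without PTN 2). Sox6 was 0.47 with limma on log2 FPKM and -0.35 to 0.12 with 1 library left out. Sox21 was -0.21 to 0.43, the lowest without PTN 2. Sox5 over Sox6 was 0.32 with expected counts, and Sox4 over Sox11 was -0.42 to 0.089 with 1 library left out, the highest without PTN 1. With 1 library left out, Sox4 was 0.35 to 0.76 and Sox11 0.44 to 0.93, and Sox11 was 0.76 and called by DESeq2.

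DESeq2's Wald test called 1134 genes higher and 774 lower (1 SOX member higher), an adjusted p under 0.1 gave 1089 and 824, and leaving out 1 library gave 201 to 1273 higher and 130 to 904 lower (members 0 to 2 higher). Leaving out PTN 3 gave the 1273 and 904, and leaving out Control 3 the 201 and 130. Called genes numbered 3 (DESeq2), 0 (block) and 0 to 2 (1 library left out) for partners. Other SOX genes gave 1 with no filter, DESeq2, limma-voom, the block and limma on FPKM, and 0 to 1 with 1 left out. SOXB1 targets gave 2 to 8 and SOXC targets 1 to 4 with 1 left out, and 7 and 5 with DESeq2. SOXE targets gave 4 (DESeq2), 1 (length trend removed) and 0 to 5 (1 left out). Matrix genes gave 4 (DESeq2), 1 (1 CPM filter), 1 (limma on FPKM) and 0 to 3 (1 left out). Whole-table counts moved by over 1.5 times without any 1 library except PTN 2. Fewer samples enter a fit with 1 library left out, and the cause of the other changes was not tested.

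After each gene's group mean was subtracted from its log2 CPM, same-numbered Control and PTN libraries correlated at -0.51, 0.36 and -0.005. Differently numbered libraries were not correlated for comparison, so these values cannot decide whether the numbers pair the groups. The labels name no pairing, and the main fit used none. The block gave 454 genes higher and 272 lower, with Sox8 at -1.01 (edgeR adjusted p = 0.0193). With the length trend removed, Sox11 was 0.43 and Sox4 0.40, over the 91.6% of tested genes that had a length. Calls of 5 target and partner genes ended under other settings: Ctbp2 (adjusted p = 0.108) and Egfr (0.0507) with the block, Egfr (0.104) and Gfap (0.06) with the length trend removed, Hapln1 (0.0874) with limma on FPKM, and Elavl3 under 5 settings (0.0542 to 0.134). The median of all genes moved by under 0.1 under every scaling run.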

Other observations

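Several SOX genes varied together over the 6 libraries, a pattern noticed in the data and computed on the same data, over 45 pairs of members with 720 permutations each. Sox2 and Sox3, SOXB1 genes with single-exon transcripts of nearly the same length, went in opposite directions. Their log2 CPM had Pearson's r = -0.963 (permutation p = 0.00139, adjusted 0.0208) and Spearman's rho = -1 (permutation p = 0.00278, adjusted 0.0417). The r was -0.974 after removing the group means and -0.906 without the 2 libraries farthest from the median of Sox2. In PTN 2, Sox2 was highest (284 CPM) and Sox3 lowest (62.2 CPM), and in Control 1 Sox2 was lowest (149 CPM) and Sox3 highest (117 CPM). Sox5 followed Sox2, with r = 0.885 and rho = 1. It ran against Sox3 with r = -0.958 and rho = -1. Sox4 followed Sox2 with r = 0.957 (adjusted permutation p = 0.0313), and by rho this pair did not pass (adjusted permutation p = 0.125). Of the 45 pairs, 4 passed by Pearson and 3 by Spearman, and 16 had a negative r. The 3 Spearman pairs join only Sox2, Sox3 and Sox5, and with rho of 1 or -1 any 2 of them fix the other. They are thus not 3 separate results, and their adjusted permutation p of 0.0417 counts all 3. The share of such pairs among all genes was not computed, so these counts cannot be called particular to SOX genes. The libraries share groups and scaling, and with no label on cultures they may not be independent.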
